A study of Mus musculus with 2 samples.

Results

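The vascular endothelial growth factor (VEGF) ligands and receptors were 8 mouse genes of the 32285 in the deposited single-cell count matrices. They were chosen by symbol: the ligands Vegfa, Vegfb, Vegfc and Pgf, the receptor tyrosine kinases Flt1 (VEGFR1) and Kdr (VEGFR2), and the co-receptors Nrp1 and Nrp2. All 8 were found in both libraries. The study implanted glioblastoma cells of the mouse line GL261 into the brain of wild-type mice (genotype label C57BlL6 WT) or of mice without the T-type calcium channel gene Cacna1h (Cav3.2KO, genotype label Cacna1H-/-), and harvested tumour and surrounding brain at day 24. Each genotype was 1 library of single cells, dissociated enzymatically and sequenced from the 3′ end, and the labels do not say how many animals a library holds or the animals' age or sex. The implanted line is the same in both libraries, so the deletion is a label of the host cells, as far as the design text states it.

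VEGF-A released by cells short of oxygen binds KDR on endothelial cells and drives the growth and leakiness of blood vessels, which are hallmarks of glioblastoma. FLT1 binds VEGF-A, VEGF-B and placental growth factor (PGF) tightly and signals weakly, and monocytes carry it too. VEGF-C acts mainly through FLT4 and KDR on lymphatic and blood vessels, and the neuropilins NRP1 and NRP2 are co-receptors that also bind class 3 semaphorins.

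In the library labelled wild type 3110 barcodes were kept, with 52031677 mouse unique molecular identifiers (UMIs), and in the other, labelled knockout, 6575 with 100764971, at medians of 12522.5 and 11071 UMIs per cell. Both are called by their labels because Cacna1h went against them in the sum over all kept cells. It had 13 UMIs (0.2498 per 1000000 UMIs) in the first and 168 (1.67 per 1000000) in the second. These sums include cells of the implanted line, which the deletion label does not cover, and were not split by class. A 3′ count does not show whether a transcript is intact. Of 2101 host cells under the wild type label, 1797 had UMIs of Y-linked genes and 0 had Xist. Of 4905 under the knockout label, 829 had Y-linked UMIs only and 3482 Xist only, so that library holds host cells of both sexes. The libraries shared 21 barcodes, 7 of them kept in both. With 1 library per group no test between the genotypes was possible. Intervals below are exact 95% limits that cover counting error only, and they say nothing of the spread between animals.

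Cells were sorted into classes by fixed marker genes, none of them a member, and each name ends in "-like" for that reason. Levels are CPM, a gene's UMIs per 1000000 mouse UMIs summed over the cells of a class, given below in the order wild type label, knockout label. The main classes were T cell-like (641 and 1645 cells), tumour-like (663 and 1059) and NK cell-like (258 and 615) cells. Monocyte/macrophage-like (284 and 656), dendritic-like (277 and 371) and microglia-like (133 and 466) cells were main classes too. A further 254 and 316 cells are called unresolved macrophage or microglia-like. In them the monocyte/macrophage, microglia and border macrophage panels were too close to choose by the share of markers detected. By level, their monocyte/macrophage panel summed to 6734 and 7557 CPM and their microglia panel to 836 and 816. Of these cells 202 and 132 fell in cluster 7 and 50 and 158 in cluster 9, both named monocyte/macrophage by markers. Smaller classes included plasmacytoid dendritic-like (60 and 219) and endothelial-like (20 and 34) cells. All 12 tumour markers had UMIs in the tumour-like class, which held all of them at 3499.8 CPM in sum under the wild type label. A gene was measured in a class if it had at least 100 UMIs there, and a ratio between libraries past 1.5-fold is called by size alone.

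**Figure D1:**
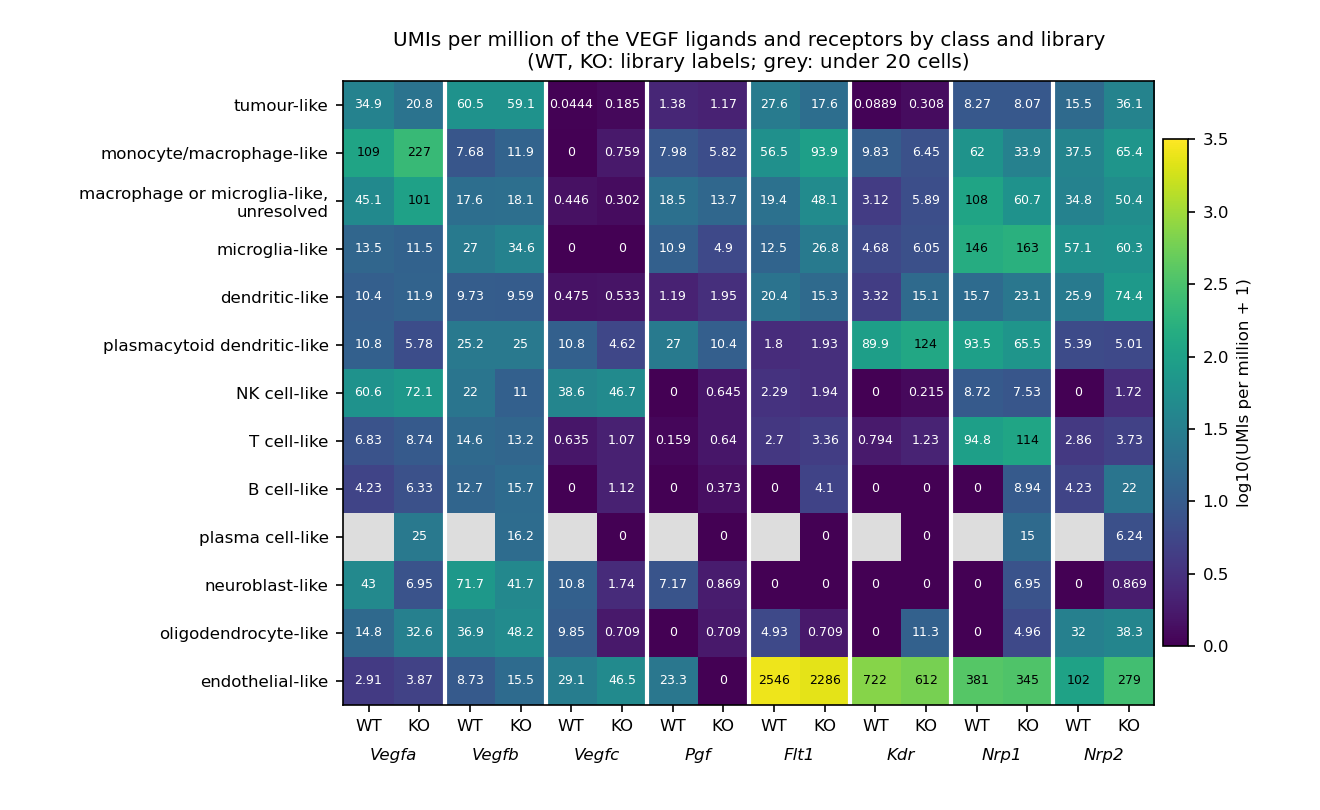
Levels of the 8 genes (columns, with the wild type label left and the knockout label right) in classes with at least 20 cells (rows), as CPM, with the colour on a log10 scale. Vegfa was highest in monocyte/macrophage-like cells (109 and 227), Vegfc in NK cell-like and endothelial-like cells, and Flt1, Kdr and Nrp1 in endothelial-like cells.

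Vegfa, the main signal for vessel growth, lies on chr17:46016993-46032369 (minus strand, mm10, GENCODE M21). Among classes of at least 20 cells in a library, monocyte/macrophage-like cells had the highest level of it in both, at 109 CPM (95% interval 98.0 to 121, 355 UMIs) and 227 (217 to 238, 1794 UMIs). Under the wild type label 3 astrocyte-like cells stood above them, at 357 (200.04 to 589). There 11 neutrophil-like cells were barely above them, at 111 (22.8 to 323) from 3 UMIs. With clusters in place of classes, the neuroblast cluster was highest under that label. In order of level under the wild type label there followed, among the same classes, NK cell-like cells at 60.6 and 72.1, unresolved macrophage or microglia-like cells at 45.1 and 101, neuroblast-like cells at 43.0 (22.2 to 75.1, 24 cells) and 6.95, and tumour-like cells at 34.9 and 20.8. The intervals of unresolved, neuroblast-like and tumour-like cells were not all apart under the wild type label. Microglia-like cells, at 13.5 and 11.5, and dendritic-like cells, at 10.4 and 11.9, were neighbours whose intervals overlapped, and T cell-like cells had 6.83 and 8.74. The endothelial-like cells, which carry the receptors, had 1 Vegfa UMI in each library. Of all Vegfa UMIs in kept cells, tumour-like cells held 41.6% and monocyte/macrophage-like cells 18.8% under the wild type label. Under the knockout label tumour-like cells held 15.6% and monocyte/macrophage-like cells 41.5%. Which class held most of the ligand thus differed between the 2 libraries, and shares depend on how many cells of each class were captured as well as on the level per cell.

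Vegfb encodes a ligand of FLT1 and lies on chr19:6982473-6987651 (minus strand). Its level in tumour-like cells was nearly equal in the 2 libraries, at 60.5 (57.4 to 63.8) and 59.1 (56.5 to 61.8) CPM, and they held 72.4% and 59.4% of its UMIs. Neuroblast-like cells had 71.7 (43.8 to 111, 24 cells) and 41.7, and oligodendrocyte-like cells 36.9 and 48.2. Microglia-like cells had 27.0 and 34.6, and monocyte/macrophage-like cells, the highest in Vegfa, had 7.68 and 11.9. Vegfa and Vegfb were therefore ranked differently over the classes, with Pearson's r of their log2 levels at 0.04 over 25 class and library units (a description, over units that share libraries).

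Vegfc, the lymphatic ligand, lies on chr8:54077606-54187096 (plus strand) and had 139 and 343 UMIs in all. NK cell-like cells held 60.4% and 63.3% of them, at 38.6 (30.8 to 47.7) and 46.7 (40.7 to 53.3) CPM. Vegfc UMIs were seen in 20.9% and 20.3% of NK cell-like cells (median depths 6028 and 6493 UMIs), against 0.468% and 1.03% of T cell-like cells, which were deeper (medians 7719 and 8878 UMIs). Endothelial-like cells had a comparable level, 29.1 (14.0 to 53.5) and 46.5 (24.0 to 81.2), from 10 and 12 UMIs. Tumour-like cells had 1 and 6 UMIs of Vegfc. Microglia-like cells had 0 in both libraries, which allows up to 1.56 and 0.432 CPM by the 3 counts that a count of 0 allows. Vegfa and Vegfc were both seen in 14 of 258 and 47 of 615 NK cell-like cells, while 65 and 146 had Vegfa alone and 40 and 78 Vegfc alone.

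Pgf, which encodes placental growth factor, a ligand of FLT1 that does not bind KDR, lies on chr12:85166635-85177790 (minus strand) and had 316 and 310 UMIs in all. Unresolved macrophage or microglia-like cells held the most, at 18.5 (14.8 to 23.0) and 13.7 (11.1 to 16.9) CPM. Plasmacytoid dendritic-like cells had 27.0 (15.1 to 44.5) and 10.4 (6.86 to 15.1), and microglia-like cells 10.9 and 4.90. The 13 and 14 mural-like cells (pericytes and smooth muscle), too few to be described as a class, had 44 and 5 Pgf UMIs, or 170 (124 to 228) and 41.5 (13.5 to 96.8) CPM. Of these cells 0 and 10 were suspected doublets by Scrublet score, and median depths were 20641 and 5814 UMIs. The 8 Pgf UMIs of the endothelial-like cells under the wild type label all came from 1 cell, and there were 0 under the knockout label.

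**Figure D2:**
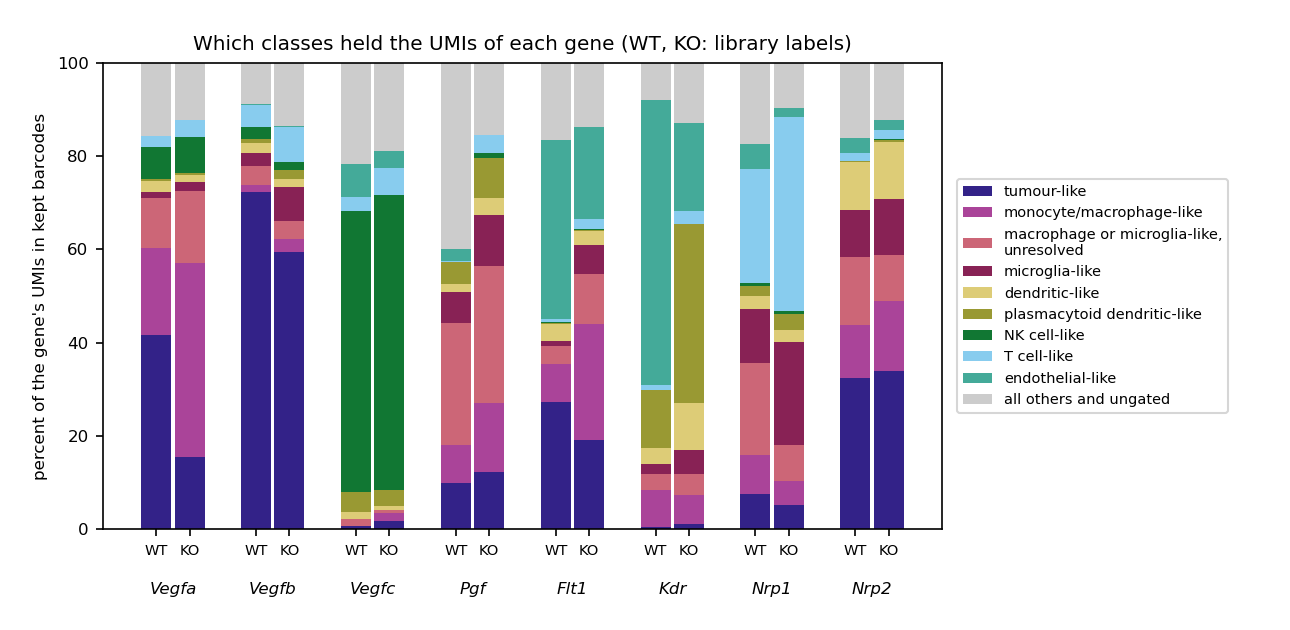
Percent of each gene's UMIs held by each class, 1 bar for each gene and library, with classes stacked to 100%. Tumour-like cells held most Vegfb (72.4% and 59.4%) and NK cell-like cells most Vegfc (60.4% and 63.3%), while the largest holder of Vegfa was the tumour-like class under the wild type label and the monocyte/macrophage-like class under the knockout label.

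Upstream sequences of 3 members are shown because Vegfa went with the hypoxia list in macrophages and because Flt1 and Kdr, which share the endothelium, were found apart in other cells. Each run is the 250 bases before the RefSeq start (GRCm38.p6), 5′ to 3′ on the gene's strand, with motif matches in capitals. They were read for ACGTG (the core of the element bound by hypoxia-inducible factors), GGGCGG (the GC box) and TGACGTCA (the cyclic AMP response element) on both strands; ACGTG can share end letters with TGACGTCA but does not lie within it.
Vegfa, chr17:46032378-46032627, minus strand: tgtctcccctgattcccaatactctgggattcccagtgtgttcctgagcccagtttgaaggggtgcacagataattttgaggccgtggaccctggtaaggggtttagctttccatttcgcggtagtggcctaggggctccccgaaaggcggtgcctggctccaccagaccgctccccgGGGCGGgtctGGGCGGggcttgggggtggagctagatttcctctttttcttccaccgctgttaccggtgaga
Flt1, chr5:147726012-147726261, minus strand: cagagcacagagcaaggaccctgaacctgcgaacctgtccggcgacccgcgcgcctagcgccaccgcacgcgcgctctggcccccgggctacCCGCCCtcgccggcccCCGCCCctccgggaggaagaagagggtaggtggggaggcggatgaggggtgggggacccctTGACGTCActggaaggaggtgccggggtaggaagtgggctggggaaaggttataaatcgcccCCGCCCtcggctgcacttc
Kdr, chr5:75978456-75978705, minus strand: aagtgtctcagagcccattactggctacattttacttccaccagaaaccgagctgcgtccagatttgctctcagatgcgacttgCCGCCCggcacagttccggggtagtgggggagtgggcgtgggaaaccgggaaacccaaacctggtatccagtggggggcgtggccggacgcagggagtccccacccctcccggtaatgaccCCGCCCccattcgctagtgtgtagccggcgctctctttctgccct
The Vegfa window held 2 GC boxes and no ACGTG, the Flt1 window 3 GC boxes and 1 TGACGTCA, and the Kdr window 2 GC boxes. GC boxes were in 32.7% of 32851 windows of this length over all genes, ACGTG in 16.6% and TGACGTCA in 1.55%. ACGTG was in 54.8% of the 31 windows of the hypoxia list, and in 1 of the 10 windows of the members. That was the window of a second RefSeq start of Vegfa, at chr17:46025164-46025413, which lies inside the Vegfa gene and not upstream of it. A match describes these letters only, and a window without one says nothing of elements elsewhere in the gene.

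Flt1, the receptor that acts in part as a decoy, lies on chr5:147561604-147726011 (minus strand). Endothelial-like cells had 2546 (2380.4 to 2721) and 2286 (2105 to 2478) CPM, from 20 and 34 cells. Mural-like cells followed at 785 and 1037, from 13 and 14 cells, of which 0 and 10 were suspected doublets by Scrublet score. Under the knockout label their next panel was that of B cells, at a median of 2839 CPM. Monocyte/macrophage-like cells had 56.5 and 93.9, unresolved macrophage or microglia-like cells 19.4 and 48.1, tumour-like cells 27.6 and 17.6, and microglia-like cells 12.5 and 26.8. Within the dendritic-like class it lay mostly in cells with Xcr1 or Clec9a, markers of the cross-presenting subset, at 27.3 and 24.9 against 2.04 and 5.50 in mature dendritic-like cells. Vegfa and Flt1 UMIs were both seen in 39 of 284 and 198 of 656 monocyte/macrophage-like barcodes, with Vegfa alone in 69 and 214, Flt1 alone in 49 and 81 and neither in 127 and 163. No background share from free RNA was set beside these counts.

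Kdr, the main signalling receptor, lies on chr5:75932827-75978458 (minus strand). It was highest in endothelial-like cells, at 722 (635 to 817) and 612 (520 to 715) CPM. The next highest class of at least 20 cells was the plasmacytoid dendritic-like one, with 89.9 (66.7 to 119) and 124 (111 to 138), where 36.7% and 47.9% of cells had a Kdr UMI (median depths 8714.5 and 11288 UMIs). T cell-like cells, of somewhat lower depth (medians 7719 and 8878 UMIs), had one in 0.624% and 0.547% of cells. Thinned to 2000 UMIs, the shares were 15% and 17.9% of plasmacytoid dendritic-like and 0% and 0.247% of T cell-like cells. Plasmacytoid dendritic-like cells were few, yet they held 12.3% and 38.4% of all Kdr UMIs, against 61.1% and 18.8% in endothelial-like cells. Their own panel stood at a median of 7881 and 8499 CPM and the monocyte/macrophage panel at 7473 and 7465, the highest of the other panels. Mature dendritic-like cells had 13.3 and 28.8.

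The 2 receptor kinases parted outside the endothelium. Both were seen in 19 of 20 and 20 of 34 endothelial-like cells, whose median depths were 16446.5 and 4262.5 UMIs. Mural-like cells had 203 and 125 Flt1 UMIs and 1 Kdr UMI in each library, though 10 of the 14 under the knockout label were suspected doublets. Tumour-like cells had 621 and 573 Flt1 UMIs with 2 and 10 of Kdr, where the endothelial-like cells had 875 and 590 with 248 and 158. The ratio of Kdr to Flt1 counts in tumour-like cells was thus far below that of the endothelial-like cells. Monocyte/macrophage-like cells had 184 and 742 Flt1 UMIs with 32 and 51 of Kdr. The endothelial panel summed to 37.5 and 39.2 CPM in tumour-like cells. The part of RNA from other cells in the Flt1 counts of tumour-like cells was not tested.

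Nrp1, which binds VEGF-A and semaphorin 3A, lies on chr8:128358604-128503363 (plus strand); the microRNA gene Mir1903 lies inside it on the same strand, so its reads cannot be told apart by position alone. Endothelial-like cells had 381 (319 to 452) and 345 (277 to 424) CPM, followed, among classes of at least 20 cells, by microglia-like cells at 146 (129 to 164) and 163 (154 to 173). Unresolved macrophage or microglia-like cells had 108 and 60.7, plasmacytoid dendritic-like cells 93.5 and 65.5, T cell-like cells 94.8 and 114, and monocyte/macrophage-like cells 62.0 and 33.9. T cell-like cells held 24.5% and 41.8% of all Nrp1 UMIs. Among them the level differed by subset. Cells with Cd4 and no Foxp3 had 268 (239 to 300) and 219 (207 to 232), regulatory cells (Foxp3 with at least 2 further markers) 65.1 (48.3 to 85.9) and 81.6 (72.2 to 91.9), and cells with Cd8 46.6 (39.5 to 54.5) and 51.1 (45.6 to 57.0). Nrp1 is a known surface marker of thymus-derived regulatory T cells, and in these libraries the intervals of the Foxp3-negative Cd4 cells lay above those of the regulatory cells in both. A cell without a Foxp3 UMI may still have transcribed the gene. In cells with Cd4 and no Foxp3, 65.9% and 60.1% had an Nrp1 UMI. After each cell was thinned to 2000 UMIs, with shallower cells left out, these shares were 30.2% and 27.6%, against 10.3% and 15.3% in regulatory cells. The T cell-like cells of 1 cluster, led by Ccl1, Ifng and Penk and singled out after its values were seen, had 338 and 281.

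Nrp2, which binds VEGF-C and semaphorin 3F, lies on chr1:62703285-62818695 (plus strand); it overlaps Gm29083 on the opposite strand and Gm37121 on the same strand. Endothelial-like cells had 102 (70.9 to 142) and 279 (218 to 351) CPM. Mature dendritic-like cells (at least 2 of Ccr7, Fscn1 and Ccl22) had 103 (84.0 to 125) and 168 (151 to 185), against 0.718 and 6.04 in dendritic-like cells with Xcr1 or Clec9a. Dendritic subsets were thus split between the 2 receptors, with Nrp2 in mature cells and Flt1 in cells with Xcr1 or Clec9a. Microglia-like cells had 57.1 and 60.3, monocyte/macrophage-like cells 37.5 and 65.4, and tumour-like cells 15.5 and 36.1. Within the tumour-like class 1 cluster stood out, number 19, with 91.1 and 61.1 CPM in 51 and 386 cells, and it was singled out after its values were seen. NK cell-like cells had 0 and 8 Nrp2 UMIs.

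**Figure D3:**
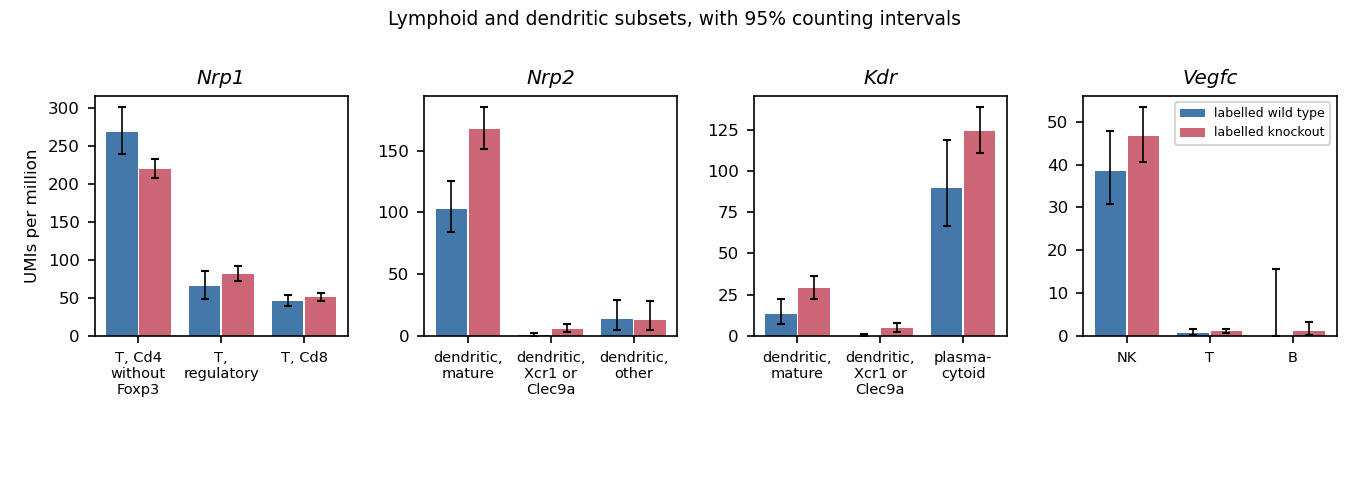
Levels in CPM (bars) with exact 95% counting intervals (lines) of Nrp1 in T cell-like subsets, Nrp2 and Kdr in dendritic-like subsets and Vegfc in lymphoid classes, with the wild type label in blue and the knockout label in red. The same subset was highest in both libraries in each panel: Cd4 cells without Foxp3 for Nrp1, mature cells for Nrp2, plasmacytoid cells for Kdr and NK cells for Vegfc.

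The design sets hosts labelled as lacking Cacna1h against wild-type hosts, and the libraries were compared by label for the VEGF genes in each class. As Cacna1h, summed over host cells and the implanted line together, went against the labels, no direction below is ascribed to the deletion. Over the 7 classes that reached 100 cells in both libraries, 30 of 56 gene and class pairs were measured. Under the knockout label 9 were higher past 1.5-fold, 4 lower and 17 within 1.5-fold. Of all genes measured in a class, 4.95% to 11.1% were higher and 2.52% to 7.29% lower, depending on the class. Pairs of a class share cells, and the 2 libraries share nothing that would measure how far 2 mice of 1 genotype differ.

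In tumour-like cells Vegfa went from 34.9 to 20.8 CPM under the knockout label, a log2 ratio of -0.75 (-0.90 to -0.60). Flt1 went from 27.6 to 17.6 (-0.64, -0.81 to -0.48), and Nrp2 from 15.5 to 36.1 (1.22, 1.05 to 1.40). Vegfb (-0.03) and Nrp1 (-0.03) were nearly equal. These are 3 of 5 measured members past 1.5-fold, where 18.4% of all genes measured in the class were (11.1% higher and 7.29% lower). All 3 calls ended when the clusters within the class were weighted alike in both libraries, with log2 ratios of -0.28 for Vegfa, -0.39 for Flt1 and 0.11 for Nrp2. Of the 4 clusters with at least 20 such cells in both libraries, number 19 had the highest Nrp2 and the lowest Vegfa, and it held 51 of 663 and 386 of 1059 tumour-like cells. Within clusters Vegfa was 47.9 and 32.2 in cluster 3, 34.5 and 22.1 in cluster 14, 18.8 and 26.5 in cluster 4 and 9.34 and 10.5 in cluster 19, so that its direction was not the same in all 4. Nrp2 was higher under the knockout label in 3 of the 4, with intervals apart, at 16.2 and 28.7 in cluster 3, 14.0 and 30.8 in cluster 14 and 5.56 and 16.5 in cluster 4. In cluster 19 it was lower, at 91.1 and 61.1. Flt1 was 33.4 and 24.4, 23.0 and 19.2, 27.0 and 18.2, and 10.5 and 10.1 in clusters 3, 14, 4 and 19. The monocyte/macrophage panel summed to 47.6 and 126 CPM in tumour-like cells, and its part in these ratios was not tested.

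In monocyte/macrophage-like cells 4 members were higher and 1 was lower past 1.5-fold, of 5 measured, where 10.4% of all genes measured in the class were (5.44% higher and 4.96% lower). Vegfa was 2.08-fold higher under the knockout label (log2 1.06, 0.89 to 1.23), with a Vegfa UMI in 38.0% and 62.8% of cells at like depths (medians 9781 and 10334.5 UMIs). Flt1 (log2 0.73, 0.50 to 0.97) and Nrp2 (0.80, 0.52 to 1.10) were higher too, and Nrp1 was lower (-0.87, -1.14 to -0.60). Vegfb was higher by size (0.63), but its interval of -0.02 to 1.33 included no difference. The higher Vegfa was present in each of the 3 clusters that held at least 20 such cells in both libraries. It was 175 and 305 CPM in cluster 9, led by Arg1 and Ms4a7, 35.2 and 61.2 in cluster 7, led by H2-M2 and Ccl24, and 40.6 and 101 in cluster 18, led by Chil3 and Adgre4.

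Host cells of both sexes made up the knockout-labelled library, and Flt1 differed between them where Vegfa in monocyte/macrophage-like cells had overlapping intervals. Among monocyte/macrophage-like cells with Y-linked UMIs only, Vegfa was 107 (95.2 to 119, 237 cells) under the wild type label and 219 (193 to 247, 85 cells) under the knockout label, and it was 232 (220 to 245, 482 cells) in the knockout-labelled cells with Xist only. Flt1 was 53.2 (45.2 to 62.2) and 47.9 (36.3 to 62.1) in the Y-only cells of the 2 libraries, against 104 (96.3 to 113) in the Xist-only cells. The same split was seen in unresolved macrophage or microglia-like cells, with Flt1 at 20.04 and 11.97 in Y-only cells and 59.5 in Xist-only cells. In microglia-like cells it was 12.4, 9.88 and 31.7 in the same order. The higher Flt1 of the knockout-labelled myeloid classes was thus found in cells with Xist and not in those with Y-linked UMIs. Cells of the 2 kinds come from different animals, and sex and animal cannot be told apart. Nrp1 was lower in both, at 62.0 against 28.6 in Y-only and 34.8 in Xist-only monocyte/macrophage-like cells, and Nrp2 was higher in both, at 38.2 against 95.8 and 57.5. In microglia-like cells Vegfa, within 1.5-fold over the whole class, was 14.1 (9.11 to 20.8) and 27.7 (18.4 to 40.0) in the Y-only cells of the 2 libraries and 8.99 in the Xist-only cells.

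Unresolved macrophage or microglia-like cells had 6 measured members, of which Vegfa (log2 1.16, 0.93 to 1.40) and Flt1 (1.31, 0.96 to 1.67) were higher and Nrp1 (-0.83, -1.03 to -0.64) lower under the knockout label, where 10.4% of all genes measured there were past 1.5-fold (4.95% higher and 5.48% lower). Nrp2 (0.53), Pgf (-0.43) and Vegfb (0.04) were within it. Among Y-only cells of this class, however, Nrp2 was 34.2 (28.9 to 40.3) and 76.3 (62.2 to 92.6), with 44.7 in the Xist-only cells. Pgf was 18.9 (14.99 to 23.5) and 1.496 (0.181 to 5.403, 2 UMIs) in the Y-only cells of the 2 libraries and 17.2 in the Xist-only cells. Pgf had the same order in monocyte/macrophage-like cells, at 8.52, 1.68 (2 UMIs) and 7.40, and in microglia-like cells, at 11.3, 0.988 (1 UMI) and 6.18. The Vegfa call ended with clusters weighted alike (log2 0.34), as levels were 27.5 and 48.2 in cluster 7 (202 and 132 cells) and 147 and 173 in cluster 9 (50 and 158 cells). In microglia-like cells only Flt1 was past 1.5-fold (1.10, 0.49 to 1.78), of 5 measured and against 14.8% of all genes (7.64% higher and 7.13% lower), while Nrp1 (0.16), Nrp2 (0.08), Vegfb (0.36) and Vegfa (-0.23) were within it. In the microglia-like class the microglia panel summed to 3709 and 5731 CPM, the monocyte/macrophage panel to 3520.2 and 2107 (all 12 markers seen in both libraries) and the border macrophage panel to 376 and 86.4 (5 and 6 of 7 markers seen). Their part in these ratios was not tested.

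In dendritic-like cells Nrp2 was 2.88-fold higher under the knockout label, at 25.9 and 74.4 CPM (log2 1.52, 1.22 to 1.84), the only such member of 4 measured, against 14.3% of all genes (7.17% higher and 7.12% lower). Mature cells, which carry it, were 97 of 277 and 212 of 371 of the class. Among them alone it was 103 and 168. In cells with Y-linked UMIs only the class had 23.2 (255 cells) and 29.3 (38 cells), and the Xist-only cells of the knockout-labelled library had 83.9. Vegfa (0.19), Nrp1 (0.56) and Flt1 (-0.42) were within 1.5-fold. Kdr, with 14 and 85 UMIs, fell just short of the minimum of 100 and was 3.32 and 15.1 CPM (log2 2.18, 1.36 to 3.11).

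NK cell-like cells had Vegfa (log2 0.25, -0.04 to 0.55) and Vegfc (0.28, -0.09 to 0.66) within 1.5-fold, so 0 of 2 measured members were past it, where 14.4% of genes in the class were (7.35% higher and 7.05% lower). Vegfb, with 48 and 51 UMIs just short of the minimum, was 22.0 and 11.0 CPM (log2 -1.01, -1.60 to -0.41). T cell-like cells likewise had 0 of 3, against 8.47% (5.95% higher and 2.52% lower), with Vegfa at 0.36, Vegfb at -0.14 and Nrp1 at 0.27 (0.14 to 0.40). Kdr reached 100 UMIs in none of the 7 compared classes. In the smaller classes values can only be set side by side. Endothelial-like Flt1, Kdr and Nrp1 had overlapping intervals between the libraries, and Nrp2, at 102 (70.9 to 142) and 279 (218 to 351), did not. These intervals do not cover the spread between cells, and 1 cell in each library held 16 of the 35 and 27 of the 72 Nrp2 UMIs. An Nrp2 UMI was seen in 45% and 44.1% of the cells, at median depths of 16446.5 and 4262.5 UMIs.

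**Figure D4:**
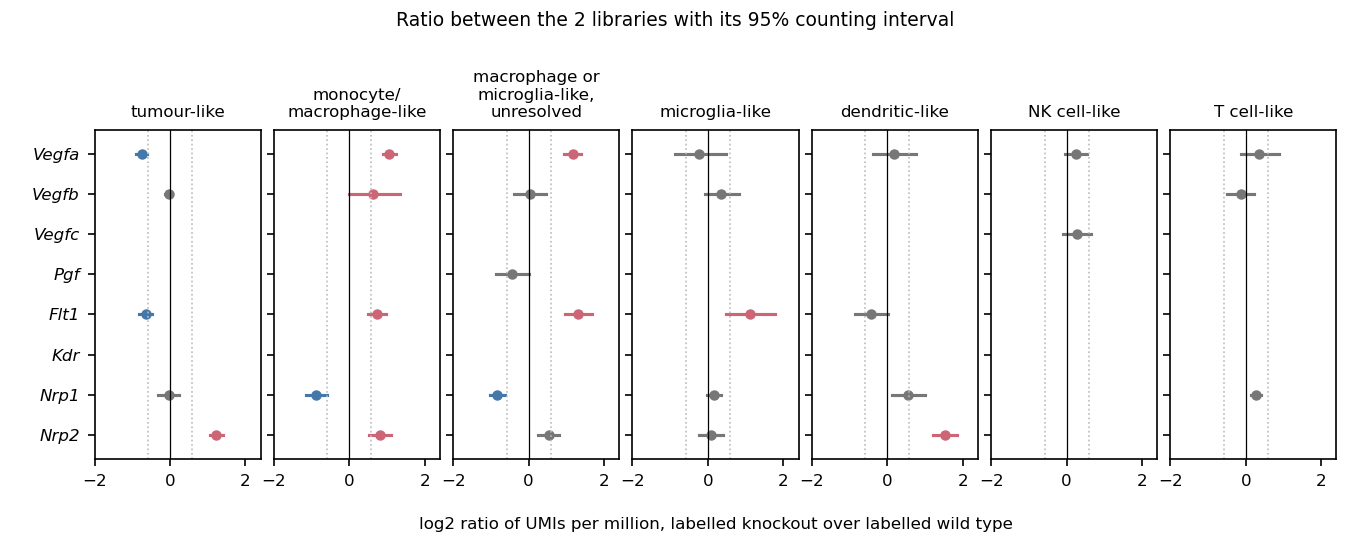
Log2 ratio of CPM, knockout label over wild type label (x axis), for each measured gene (rows) in each compared class (panels), with exact 95% counting intervals as lines and 1.5-fold as dotted lines. Red points are higher and blue points lower past 1.5-fold: Vegfa was -0.75 in tumour-like and 1.06 in monocyte/macrophage-like cells.

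Vegfa is a classical target of hypoxia-inducible factors, and cells of each class and library were ranked by the summed level of 24 other genes of the hypoxic response (glycolytic enzymes among them) and cut into 4 groups of equal size. In monocyte/macrophage-like cells Vegfa was 72.3 (52.6 to 97.1) and 94.6 (80.4 to 111) CPM in the lowest group and 227 (195 to 263) and 419 (389 to 451) in the highest, ratios of 3.13 and 4.43. The groups between had 48.7 and 95.3 under the wild type label, so the level did not go up at each step there, and 129 and 286 under the knockout label. Unresolved macrophage or microglia-like cells had ratios of 2.07 and 2.402. Under the wild type label they had 45.5 in the lowest and 94.3 in the highest group, with lower levels of 26.2 and 18.1 between. Under the knockout label the level went up at each step, from 69.2 through 76.7 and 92.3 to 166. Tumour-like cells had 33.6 and 60.3 in the lowest and highest group under the wild type label, a ratio of 1.80, with lower levels of 23.2 and 17.5 in the groups between. Under the knockout label they had 22.9 and 21.05, a ratio of 0.918 whose log2 interval of -0.45 to 0.21 included no difference. NK cell-like cells had ratios of 0.785, whose log2 interval of -1.18 to 0.54 included no difference, and 0.581. Macrophages in the highest group were not the deepest, at medians of 9954 and 9994.5 UMIs against 7542 and 9105.5 in the lowest, whereas tumour-like depth went up along the groups, from 17979.5 to 40055 and from 19563 to 35439.5.

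**Figure D5:**
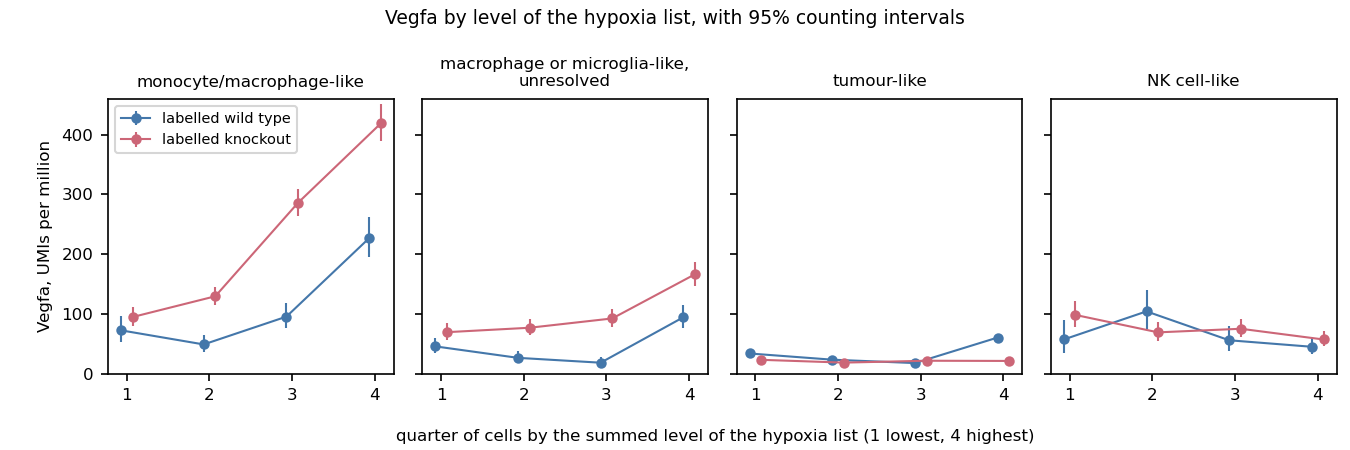
Vegfa in CPM (y axis, with exact 95% counting intervals) in 4 equal groups of cells ranked by the summed level of the hypoxia list (x axis), for 4 classes and both libraries. In monocyte/macrophage-like cells it was highest in the highest group, at 227 and 419, and in NK cell-like cells that group was below the lowest one.

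Between the libraries, the same list was lower in the knockout-labelled tumour-like cells, where 12 of 21 measured genes were lower past 1.5-fold and 0 higher, with a median log2 ratio of -0.61 against 0.01 over all genes. Of all genes measured in that class 7.29% were lower and 11.1% higher. Slc16a3, a lactate transporter, went from 49.5 to 4.53 CPM (-3.45), and Car9, a carbonic anhydrase, had a log2 ratio of -2.80. Mif (0.12) and Kdm3a (0.18) had the highest ratios. In monocyte/macrophage-like cells 6 of 21 genes of the list were higher and 0 lower (median 0.35 against -0.03 over all genes), where 5.44% of all genes were higher and 4.96% lower. They were led by Ddit4, a stress-induced inhibitor of mTOR (1.32), and Egln3, an oxygen-sensing prolyl hydroxylase (1.27), with Ndrg1 lowest in the list (-0.42). Vegfa lay on the same side as this list in both classes, and a link between them was not tested. In tumour-like cells the Vegfa call ended with clusters weighted alike, and the list was not recomputed that way. Under the knockout label Vegfa of the tumour-like cells did not go up with the list (ratio of the highest to the lowest group 0.918). In NK cell-like cells 7 of 16 genes of the list were lower, where 7.05% of all genes in the class were. Pgk1, at 159 and 79.6 CPM, and Ldha (-0.96) were lower most, while Vegfa was within 1.5-fold.

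Of the oxygen-sensing genes, 1 of 7 measured in tumour-like cells was past 1.5-fold, Egln3 (-0.60), where 18.4% of all genes in the class were. Hif1a, the hypoxia-inducible subunit, was 86.7 and 90.9 CPM. In monocyte/macrophage-like cells Hif1a was higher, at 300 and 532 (0.82), as was Egln3, 2 of 6 in all, where 5.44% of all genes were higher. Vhl (-0.24) and Egln2 (-0.20) were the lowest there. Single members past 1.5-fold elsewhere were Vhl in microglia-like cells (0.69), Egln2 in NK cell-like cells (0.66), and Hif1an (0.64) and Egln1 (-0.61) in dendritic-like cells. In these classes 14.8%, 14.4% and 14.3% of all genes were past it.

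Among macrophage state genes, Arg1, an arginase of hypoxic and wound-type macrophages, marked cells with more Vegfa. After thinning to 5000 UMIs, monocyte/macrophage-like cells with an Arg1 UMI had 257 (201 to 324) and 332 (300 to 367) CPM of Vegfa, and those without 80.0 (63.4 to 99.6) and 178 (159 to 198). Cells with Adamdec1, a protease of resident-type macrophages, had 32.6 and 88.9, and those without 136 and 245. In this class Arg1 (0.65) and Ly6c2 (1.10), a monocyte marker, were higher under the knockout label, and Adamdec1 (-2.17) and Mmp12 (-1.06) lower. Between the libraries, Vegfa had overlapping intervals in cells with Arg1 and separate ones in cells without. Cells with an Mmp12 UMI had 179.6 (130.5 to 241) and 177 (130.3 to 236), and those with Hmox1, a haem-degrading enzyme, 203 (155 to 262) and 228 (189 to 272). These overlapped too, as did cells with Adamdec1. Cells with Ly6c2, at 118 (91.7 to 149) and 261 (239 to 285), and with Spp1, at 175 (126 to 237) and 299 (250 to 354), did not. In cells without a UMI of the gene the intervals were apart for every gene of this list. They were 104 (85.6 to 126) and 243 (225 to 263) without Mmp12, and 93.4 (75.3 to 115) and 240 (221 to 260) without Hmox1.

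Other genes of the pathway were mostly low. Of 15 further VEGF and angiogenesis genes, 6 were measured in tumour-like cells, with 1 higher and 2 lower, where 11.1% of all genes in the class were higher and 7.29% lower. Angpt1, a ligand that stabilises vessels, was 7.95 and 3.23 CPM (-1.30), Shb, an adaptor of KDR signalling, was 20.2 and 12.7 (-0.68), and Angpt2, the vessel-destabilising ligand, was 6.22 and 9.39 (0.59). Vegfd (-0.45) and Plcg1 (-0.19), a phospholipase activated by KDR, were within 1.5-fold. NK cell-like cells, the Vegfc holders, were measured for Angpt1 alone, which was 16.5 and 37.2 (1.17). Thbs1, an inhibitor of vessel growth, was 228 and 267 in monocyte/macrophage-like cells (0.23), 88.2 and 57.5 in unresolved cells (-0.62) and 43.6 and 8.35 in microglia-like cells (-2.39). Of the microglia-like cells 47 of 133 and 31 of 466 fell in cluster 7, named monocyte/macrophage by its markers. The part of these cells in the Thbs1 ratio was not tested. In T cell-like cells Esm1 was lower (-1.35).

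Semaphorins, the rival ligands of the neuropilins, were measured mainly in tumour-like cells, where 8 of 12 genes of the semaphorin and plexin list were measured. Of these 2 were lower, where 7.29% of all genes in the class were. Sema3e, a ligand of PLXND1, was 85.3 and 29.6 CPM (-1.53), and Sema3d 14.8 and 5.82 (-1.35). Sema3a (-0.56), Sema3b (0.49) and Plxnd1 (0.13) were within 1.5-fold. In microglia-like cells, which had high Nrp1, the plexin Plxna4 was 76.4 and 118 (0.63). Plxnd1 was within 1.5-fold in all 5 classes where it was measured. Over the 3 lists of angiogenesis, semaphorin and oxygen-sensing genes and all 7 classes, 8 of 74 measured pairs were higher and 9 lower, where 4.95% to 11.1% of all genes in a class were higher and 2.52% to 7.29% lower.

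The genes whose levels went most like those of a member over 25 class and library units were described by Pearson's r of log2(CPM + 1). The units share 2 libraries and differ in depth, and the members share them as well. Kdr went most with Eng, an endothelial co-receptor of the TGF-beta family (r = 0.89), then with Pltp (0.86), which is itself an endothelial marker of the sort, and with Plxnd1 (0.81). Flt1 went with Trip10 (0.89), Exoc3l4 (0.89) and Eng (0.87). Vegfa had the weakest likeness, at 0.72 with Clec4e and 0.68 with Nfil3. Vegfb went with Nova1 (0.88) and Rabl6 (0.88), Pgf with Trappc2l (0.82), Nrp1 with Cdipt and Plxnd1 (0.83 each), and Nrp2 with Slc31a2 (0.91). Among the members themselves Flt1 and Nrp2 were the most alike (0.78), followed by Kdr and Nrp1 (0.68) and Flt1 and Kdr (0.66). Vegfc, under 500 UMIs in all, was not ranked.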

How the data were processed

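The authors deposited UMI counts of each gene in each barcode, from Cell Ranger 7.1.0 (per the file headers). Seurat 5.0.2 and the build mm10 are also named in the submitters' processing notes, with no role for Seurat. The feature table held 36601 human and 32285 mouse genes, and only mouse genes were compared.

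A barcode was kept if it had at least 500 mouse genes and no more than 10% of its UMIs from mitochondrial genes. A cell took the class of the marker panel with the largest share of markers detected, with at least 3 markers and a lead of 15 percentage points, and 90.1% of kept cells got a class. Monocyte/macrophage, microglia and border macrophage panels closer than that to each other gave the unresolved class. Within 5 percentage points of a limit lay 105 and 127 of its cells, 71 and 126 monocyte/macrophage-like, 30 and 59 dendritic-like, 29 and 73 NK cell-like, and 20 and 37 or fewer in other compared classes. The highest other panel had a median of 199 and 260 CPM in tumour-like, 446 and 296 in monocyte/macrophage-like and 755 and 610 in dendritic-like cells. Suspected doublets were kept, and an alternative left out the highest Scrublet scores, 77 and 346 cells.

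UMIs were summed per class and library. Levels have exact Poisson, shares of cells exact binomial (Clopper-Pearson) and log2 ratios exact conditional 95% intervals. The computation was checked on simulated counts. Named genes were all members, the 2 highest and 2 lowest measured genes of each list, any receptor or ligand past 1.5-fold, and the 5 genes most like a member. Members, lists and markers were chosen with earlier results of these data known. Alternatives covered the cell filters, doublets, scaling, the UMI minimum, Leiden clusters (scanpy 1.11.5) as classes, and cells of 1 sex. Python 3.11.15 and scipy 1.17.1 were used.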

Additional observations from a re-analysis of the deposited data

Results flagged for a closer look

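Vegfa differed between the libraries in opposite directions in 2 kinds of cells. Its log2 ratio of the knockout over the wild type label was 1.16 in unresolved macrophage or microglia-like cells and -0.75 in tumour-like cells, 1.91 apart. Flt1 did the same, with 1.31 and -0.64 in these classes, 1.95 apart. With 1 library per group neither difference was tested. Both Vegfa calls, and that of Flt1 in tumour-like cells, ended when the clusters within a class were weighted alike. Flt1 in unresolved cells changed sign among host cells with Y-linked and no Xist UMIs.

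The human rows of the 8 genes, which the mouse comparison does not use, held 2 of the 10781 human-gene UMIs in the wild type-labelled library and 6 of 20272 in the other. The 6 are above the 3 counts that a count of 0 allows.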

How the results depend on the processing

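No paired analysis was possible because each group was 1 library, and for the same reason no replicate could be left out. Of the members, 9 gene and class pairs were higher and 4 lower, where 4.95% to 11.1% of all genes in a class were higher and 2.52% to 7.29% lower. With a minimum of 20 UMIs 7 were lower, and with clusters weighted alike, an alternative chosen after seeing the data, 2 were lower. Other counts were within 1.5 times of these. The pathway genes had 8 pairs higher and 9 lower, which became 24 and 17 with a minimum of 20 UMIs, where more genes were measured, 5 and 5 with clusters weighted alike, and 5 higher among host cells with Y-linked and no Xist UMIs. Most of the 30 measured ratios kept their sign, 26 of 30 as means over cells, 16 of 23 with clusters as classes, 18 of 21 among host cells with Y-linked and no Xist UMIs, 24 of 30 with clusters weighted alike, and all under the other 5 alternatives. Of ratios past 1.5-fold, those that changed sign were those of Vegfb in monocyte/macrophage-like cells with clusters as classes (-0.012) and of Flt1 in monocyte/macrophage-like (-0.15) and unresolved cells (-0.74) among host cells with Y-linked and no Xist UMIs. As means over cells, the calls of Flt1 in tumour-like (-0.47) and of Flt1 (0.47) and Nrp2 (0.46) in monocyte/macrophage-like cells were lost. With clusters weighted alike that of Flt1 in monocyte/macrophage-like cells (0.30) was lost. So were those of Vegfa, Flt1 and Nrp2 in tumour-like cells and of Vegfa in unresolved cells, as given above. The cause was not tested. The Vegfa ratio in monocyte/macrophage-like cells ranged from 0.90 to 1.33 over the 9 alternatives.

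With clusters as classes, 4 of 16 highest classes and 10 of 16 largest holders were as before, and most of the changed highest classes became the cluster named mural, into which the endothelial-like cells fell. Under the wild type label, the highest class then moved from monocyte/macrophage to neuroblast for Vegfa and from neuroblast to tumour for Vegfb. With doublets left out 11 of 16 highest classes were as before. Those of Flt1, Kdr, Nrp1 and Nrp2 changed under the wild type label, where the endothelial-like cells fell below the 20 cells needed. That of Vegfc under the knockout label changed from NK cell to endothelial. The log2 ratio of Vegfa between the highest and lowest of 4 groups by the hypoxia list was 0.54 in place of 0.85 with 2 groups in wild type-labelled tumour-like cells. In monocyte/macrophage-like cells it was 2.55 in place of 1.65 with cells thinned to 5000 UMIs under the wild type label, and 1.58 with 2 groups and 2.60 thinned in place of 2.15 under the knockout label. In unresolved cells under the knockout label it was 0.80 with 2 groups and 0.70 thinned in place of 1.26. Depth limits Vegfc, Pgf and Kdr most, which had 482, 626 and 1245 UMIs in both libraries together.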
